A study of Mus musculus with 2 samples.

Results

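Eph receptors, their ephrin ligands and the netrin pathway were followed in nuclei of the mouse subventricular zone (SVZ), the germinal layer beside the lateral ventricle. Members were taken by gene symbol: Epha plus a number (9 genes), Ephb plus a number (5), Efna plus a number (5), Efnb plus a number (3), Ntn plus a number (4), Ntng plus a number (2), Unc5a to Unc5d (4), Dcc and Neo1. The rule gave 34 of the 32285 genes in the files and used no measured value. The study set 1 library of control mice, titled healthy, against 1 library of mice given MIP, a modeled intestinal perforation. Mice entered a group at postnatal day 5, and the SVZ was taken 48 h later at postnatal day 7, snap-frozen and turned into nuclei for single-nucleus RNA sequencing. Both groups carried the same labels otherwise. The labels name no strain, sex, animal number or pooling, and the way the perforation was modeled and the handling of the controls are not described in them.

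Eph receptors are receptor tyrosine kinases that bind ephrins on a neighbouring cell. A-type ephrins hang on the membrane by a lipid anchor and B-type ephrins span it, so contact can signal into both cells, often as repulsion of a growth cone or a migrating cell. Netrins are secreted guidance proteins related to laminin: Dcc and its relative neogenin (Neo1) are known for attraction to them and the Unc5 receptors for repulsion, while the membrane-anchored netrin-Gs bind other partners at synapses. In the postnatal SVZ, ephrins and Eph receptors are known for effects on the proliferation of stem cells and the chain migration of neuroblasts, and netrin-1 with Dcc for the guidance of oligodendrocyte precursors and neurons.

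The control library held 16964 barcodes and 146730970 unique molecular identifiers (UMIs, counted RNA molecules) and the MIP library 12366 barcodes and 100823376 UMIs. After filtering, 14579 control and 10940 MIP nuclei were kept; 115 barcode sequences occurred in both libraries. They fell into 40 clusters, grouped into cell classes that are called "-like" because they were named by resemblance to marker genes. Values were compared in 9 classes, each of which had 100 or more nuclei from either library. The share of spiny projection neuron-like nuclei, named for the main striatal neuron, was 20.9% of control and 26.7% of MIP nuclei, and 27.5% and 28.5% with 2 unnamed clusters of low depth, which held 3515 control and 692 MIP nuclei, left out of the total. Median depth per nucleus was lower in the MIP library in 9 of 9 classes, for example 10829 and 7897 UMIs in spiny projection neuron-like nuclei and 5102 and 3655 in those called astroglia-like. The microglia-like class lay in different clusters in the libraries: cluster 23 had 235 control and 1 MIP nuclei, cluster 18 had 21 and 332. It also held cluster 32 (42 and 19 nuclei) and cluster 34 (22 and 24 nuclei). The latter is led by Mrc1, F13a1 and Cd163, genes known from macrophages at the brain's borders, and had 0 microglia markers among its 10 leading genes. The member counts and the Epha4, Epha6 and Unc5d ratios of the class are therefore also given without cluster 34. Other values of the class include it. Xist, made from the inactive X chromosome of females, was at 1749 UMIs per 1000000 of the control and 1.41 of the MIP library, and the sum of Eif2s3y, Kdm5d, Uty and Ddx3y, all Y-linked, at 0.314 and 472. Sex and treatment therefore cannot be told apart in any ratio below. Each group is 1 library, so nothing checks a ratio against replicates, no test was made, and every interval is an exact 95% interval that covers counting error only.

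Levels are given as CPM, the UMIs of a gene per 1000000 UMIs of that class in that library, and differences as log2 ratios of MIP to control. A member was compared in a class where it had at least 50 UMIs over both libraries, and called higher or lower when the levels were at least 1.5-fold apart. Over all nuclei 32 of the 34 members reached that minimum. Epha2, with 19 UMIs in each library, and Ntn5, with 21 and 14, did not. A further 3 members, Epha1, Efna1 and Efna4, reached it over all nuclei but in 0 of the 9 classes.

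The class with the highest level was the same in both libraries for 22 of 34 members. Dcc, Epha4, Epha8, Epha10 and Efna3 were highest in spiny projection neuron-like nuclei. Efna5, Epha6, Unc5b and Unc5d were highest in interneuron-like nuclei, and Epha7, Ephb6, Ntng2 and Unc5a in excitatory neuron-like nuclei. Ephb3 and Ephb4 were highest in astroglia-like nuclei, Efnb2, Efna4 and Ntng1 in neuroblast-like nuclei, and Neo1 and, on 9 and 5 UMIs, Ntn3 in differentiating oligodendrocyte-like nuclei. The other 2, Epha2 (microglia-like) and Ntn5 (neuroblast-like), rested on at most 5 UMIs in a library. For Efna4, Unc5b, Ntn3 and Ntn5 the interval of the highest class overlapped that of the next class in both libraries. The members with another highest class in each library include Epha3, Ephb1, Ephb2, Ntn1, Unc5c and Epha5. Epha5 was highest in interneuron-like nuclei of the control (1064 CPM, against 849 in excitatory neuron-like nuclei) and in excitatory neuron-like nuclei of the MIP library (1446 against 1070.0 CPM).

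**Figure D1:**
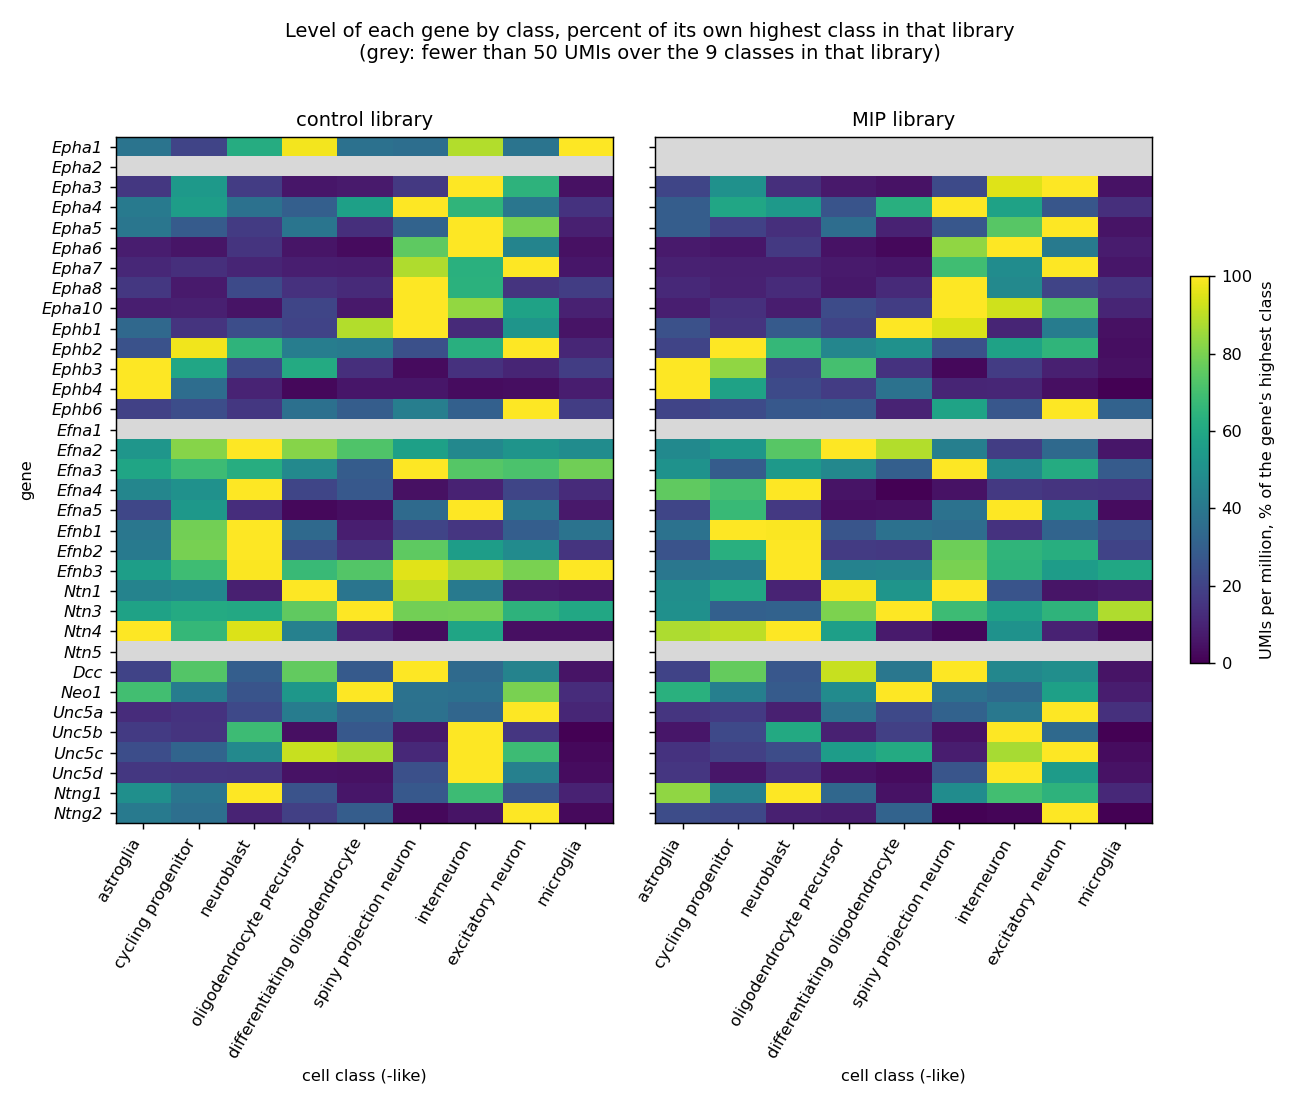
Level of each of the 34 members (rows) in 9 cell classes (columns) in the control (left) and MIP library (right), as a percentage of that gene's own highest class in that library; grey rows had fewer than 50 UMIs over the 9 classes. The bright cell lies in the same column in both panels for most genes, as for Epha4 and Dcc in spiny projection neuron-like nuclei.

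In 7 of the 9 classes more members were lower than higher in the MIP library, and all genes leaned the same way in all 9. Without doublet removal, neuroblast-like (2 higher, 0 lower) and excitatory neuron-like nuclei (7 and 3) leaned the other way. Over all nuclei 1 of 32 members was higher (Efna1) and 3 were lower (Epha4, Ephb6 and Efna2). TMM scaling, a trimmed-mean normalization, raised the log2 ratio of every gene over all nuclei by 0.18 and turned this balance to 5 higher and 1 lower. The shares of all genes under TMM scaling and without doublet removal are not given, so those counts stand without a background. Without TMM scaling the background over 20362 genes was 2.32% higher and 18.7% lower, so the members' 9.38% lower lay under it. Over all nuclei, a different mix of cell classes and a different level per nucleus cannot be told apart. In astroglia-like nuclei 0 of 26 members were higher and 6 (23.1%) lower, beside 3.88% and 11.6% of all genes tested there. In interneuron-like nuclei 0 of 24 were higher and 6 (25%) lower, beside 2.65% and 12.7%. Neither count was stable: 2 of 29 members were lower in astroglia-like nuclei without doublet removal, and 2 of 24 in interneuron-like nuclei with the same cluster makeup in both libraries.

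Excitatory neuron-like nuclei held the most members higher in the MIP library. Of 25 members tested there 4 were higher (Unc5c, Ntng1, Epha5 and Ntng2) and 5 lower (Epha4, Ephb6, Ephb2, Ntn1 and Efna2), beside 3.76% and 13.7% of all genes. Unc5c, Ntng1 and Epha5 are longer than 300 kb, and of the 554 genes of that length tested there 9.21% were higher and 5.60% lower. In spiny projection neuron-like nuclei 0 of 27 were higher and 4 lower (background 2.43% and 12.9%), and in oligodendrocyte precursor-like nuclei 0 of 24 and 4 (3.22% and 12%). These lower shares, 14.8% and 16.7%, were near the background. In cycling progenitor-like nuclei 0 of 19 were higher and 3 lower (5.05% and 11.5%), and in neuroblast-like nuclei 0 of 20 and 2 (5.74% and 9.02%). Differentiating oligodendrocyte-like nuclei had 1 of 13 higher and 0 lower (7.2% and 12.1%), and microglia-like nuclei 2 of 9 higher and 1 lower (12% and 16.7%). Without cluster 34 the microglia-like counts were 0 of 7 higher and 3 lower. The shares of all genes without that cluster are not given, so these counts stand without a background. The median log2 ratio of the members tested lay between -0.27 in microglia-like and 0.04 in excitatory neuron-like nuclei, and that of all genes tested there was -0.05 and -0.10.

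**Figure D2:**
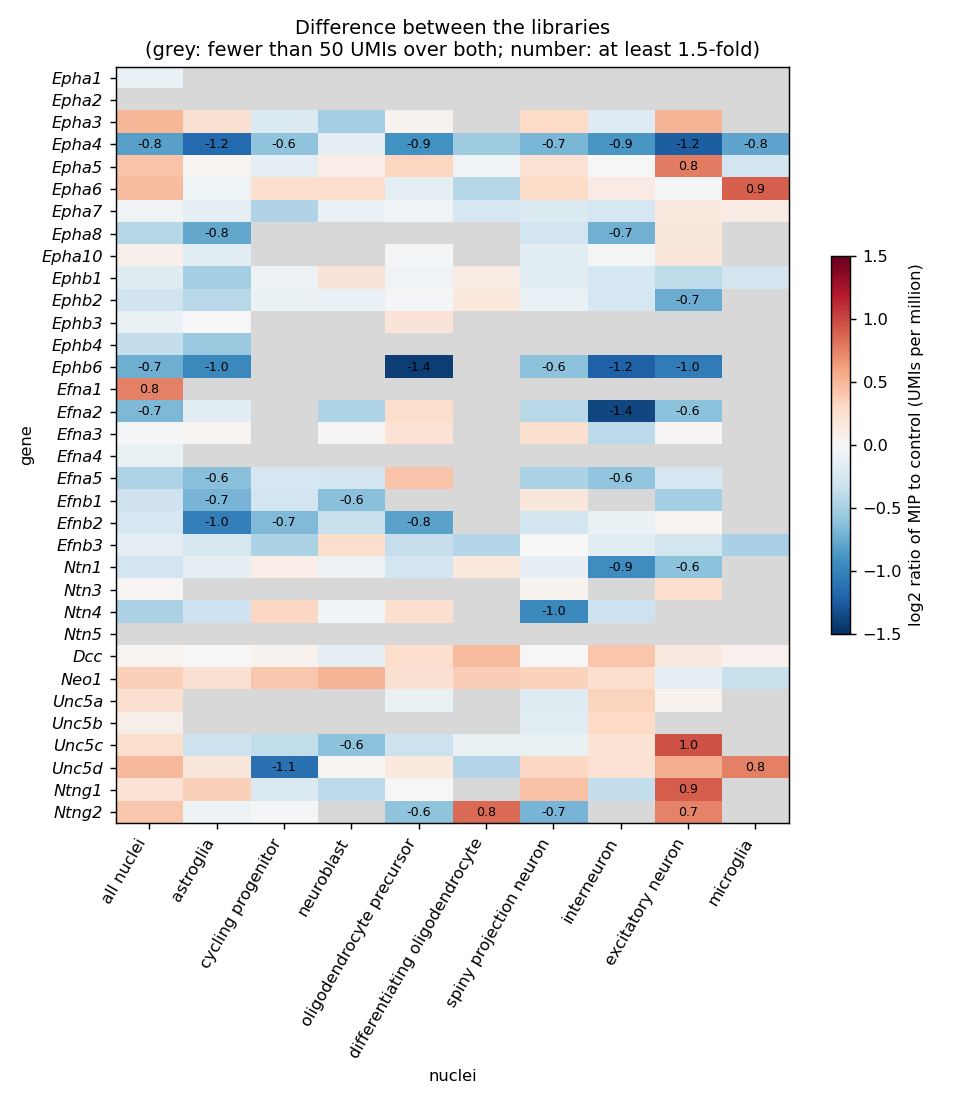
Log2 ratio of MIP to control (colour; red higher and blue lower in the MIP library) for each member (rows) over all nuclei and in 9 classes (columns). Grey cells had fewer than 50 UMIs over both libraries and a printed number marks a ratio of at least 1.5-fold. The Epha4 row is blue in each column. Of the numbers on red cells, 4 lie in the column of excitatory neuron-like nuclei, 2 in that of microglia-like nuclei, 1 in that of differentiating oligodendrocyte-like nuclei and 1 in that of all nuclei.

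Stretches upstream of 5 members, chosen after their values were seen, are shown because much of the account below is about these genes: Epha4, Ephb6, Efna5 and Efnb2, which were below a log2 ratio of 0 in most clusters, and Neo1, which was above it in most. Others leaned as far over the clusters, such as Ephb2 and Epha7, each below 0 in 16 of 19, and Epha5, above 0 in 15 of 19. Each is the 250 bases before the start site in RefSeq's GRCm38.p6 table, which held 30 of the 34 members, and is written 5′ to 3′ in the direction of transcription. Capitals mark the GC box GGGCGG on either strand (CCGCCC is its reverse complement), a motif bound by Sp-family factors in many promoters.
Epha4, chr1:77515089-77515338, minus strand: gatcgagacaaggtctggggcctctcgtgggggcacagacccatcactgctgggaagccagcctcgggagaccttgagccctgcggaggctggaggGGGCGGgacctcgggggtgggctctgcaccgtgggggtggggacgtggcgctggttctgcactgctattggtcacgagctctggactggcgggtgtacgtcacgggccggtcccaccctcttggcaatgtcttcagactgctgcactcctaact
Ephb6, chr6:41605261-41605510, plus strand: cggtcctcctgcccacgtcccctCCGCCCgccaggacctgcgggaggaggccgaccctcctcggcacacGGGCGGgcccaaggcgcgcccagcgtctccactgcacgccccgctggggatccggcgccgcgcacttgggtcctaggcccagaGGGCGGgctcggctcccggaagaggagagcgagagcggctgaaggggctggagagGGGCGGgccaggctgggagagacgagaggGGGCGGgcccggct
Efna5, chr17:62881318-62881567, minus strand: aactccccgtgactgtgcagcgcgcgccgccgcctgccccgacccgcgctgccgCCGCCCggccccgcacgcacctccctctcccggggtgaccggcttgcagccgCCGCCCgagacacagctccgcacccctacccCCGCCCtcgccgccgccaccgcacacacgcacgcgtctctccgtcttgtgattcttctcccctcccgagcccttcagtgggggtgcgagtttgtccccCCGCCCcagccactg
Efnb2, chr8:8661243-8661492, minus strand: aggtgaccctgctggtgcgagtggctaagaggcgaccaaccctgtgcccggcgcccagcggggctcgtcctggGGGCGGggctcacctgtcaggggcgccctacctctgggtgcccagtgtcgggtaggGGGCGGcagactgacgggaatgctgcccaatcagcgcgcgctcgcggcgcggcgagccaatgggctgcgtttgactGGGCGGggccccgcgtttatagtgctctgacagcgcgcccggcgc
Neo1, chr9:59036442-59036691, minus strand: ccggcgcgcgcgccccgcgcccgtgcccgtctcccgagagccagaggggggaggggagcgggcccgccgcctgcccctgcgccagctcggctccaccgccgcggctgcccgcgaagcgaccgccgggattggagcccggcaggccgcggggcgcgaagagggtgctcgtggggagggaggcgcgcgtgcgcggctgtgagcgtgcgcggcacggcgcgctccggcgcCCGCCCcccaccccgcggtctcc

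The GC box occurs 1 time in the Epha4 window, 5 times in that of Ephb6, 4 times in that of Efna5, 3 times in that of Efnb2 and 1 time in that of Neo1. Of all 32851 windows of this length 32.7% hold at least 1. Bases G and C make up 66% of the Epha4 window and 83.2% of the Neo1 window, with the other 3 between them, against a median of 52.4% over all windows. The E-box CACGTG (6.02% of all windows) and the STAT-type motif TTCNNNGAA (7.02%), searched on both strands, are in 0 of the 5.

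Epha4, a receptor that binds A-type and B-type ephrins, was the member with the widest difference: its level was lower in the MIP library in 9 of 9 classes and at least 1.5-fold lower in 7. The gene lies on the minus strand of chromosome 1 (chr1:77367185-77515088, mm10, GENCODE M21). In spiny projection neuron-like nuclei, where it was highest, it had 13902 control and 5958 MIP UMIs, or 369 and 229 CPM, a log2 ratio of -0.69 (-0.73 to -0.64), or -0.55 under TMM scaling, which leaves it under 1.5-fold. Astroglia-like nuclei held 1072 and 297 UMIs, or 151 and 67.7 CPM, a log2 ratio of -1.16 (-1.35 to -0.98). In both classes the intervals of the levels lay well apart.

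Excitatory neuron-like nuclei gave the lowest Epha4 ratio: 1028 and 389 UMIs, 145 and 61.6 CPM, log2 -1.24 (-1.41 to -1.07). Oligodendrocyte precursor-like nuclei had 433 and 172 UMIs, 111 and 59.3 CPM, log2 -0.91 (-1.17 to -0.65), and interneuron-like nuclei 1345 and 634 UMIs, 242 and 132 CPM, log2 -0.87 (-1.01 to -0.73). Cycling progenitor-like nuclei had 550 and 121 UMIs, 205 and 135 CPM, log2 -0.60 (-0.90 to -0.32), which became -0.38 with each nucleus thinned to 2000 UMIs. In each of these the MIP library was the lower one.

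Where Epha4 differed least, neuroblast-like nuclei held 137 and 123 CPM of Epha4 on 483 and 214 UMIs, log2 -0.15 (-0.39 to 0.08), an interval that includes 0. Differentiating oligodendrocyte-like nuclei held 209 and 144 CPM on 308 and 99 UMIs, log2 -0.54 (-0.88 to -0.21). The class with the lowest Epha4 level in both libraries was microglia-like, at 54.0 and 31.2 CPM on 59 and 34 UMIs, log2 -0.79 (-1.44 to -0.16), over the different clusters named above, and -1.16 without cluster 34. How much of the Epha4 count of any class came from RNA free in the suspension was not tested.

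**Figure D3:**
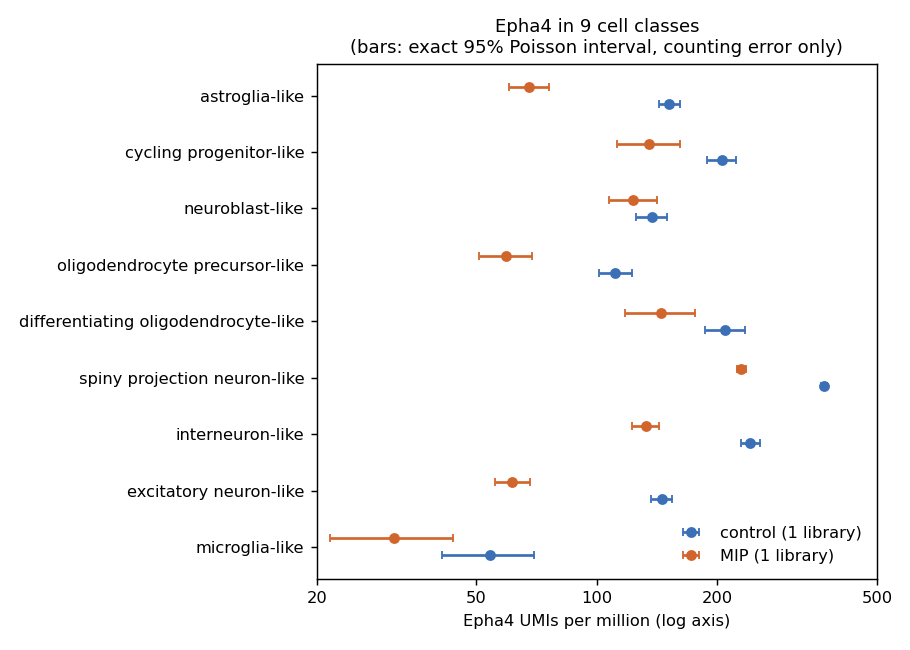
Epha4 level in CPM (log axis) in 9 cell classes; blue points are the control and orange points the MIP library, with exact 95% Poisson intervals for counting error. The MIP point lies to the left of the control point in each class, and the intervals overlap in neuroblast-like and microglia-like nuclei.

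Few genes were at least 1.5-fold lower in as many classes. Epha4 was picked as the widest of the members after its values were seen, so the shares below only describe it. Its calls in spiny projection neuron-like, cycling progenitor-like and interneuron-like nuclei each fell under 1.5-fold with other processing. The clusters hold many of the same nuclei as the classes, so their counts are not a separate result. Of 5574 genes tested in all 9 classes, 1.2% were at least 1.5-fold lower in 7 or more classes, and 14.6% were below a log2 ratio of 0 in all 9. In single clusters with at least 100 nuclei in each library, Epha4 was below 0 in 19 of 19 and at least 1.5-fold lower in 14. The same held for 9.18% and, for 14 or more clusters, 1.05% of 5216 genes tested in all 19 clusters. The lowest cluster ratio was in the astroglia-like cluster 11, at 259.9 and 93.5 CPM, log2 -1.48 (-1.81 to -1.15), while the astroglia-like cluster 5 stood at 90.9 and 54.6 CPM, log2 -0.74 (-1.01 to -0.47). The unnamed cluster 7, led by Tshz1, Foxp2 and Pbx3, where 0 of 23 members were higher and 4 lower beside 3.04% and 11.2% of all genes tested, held Epha4 at 141 and 53.5 CPM on 677 and 188 UMIs, log2 -1.40 (-1.64 to -1.17).

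Within the spiny projection neuron-like class each of the 4 clusters held less Epha4 in the MIP library, at different levels. The Drd2-type spiny projection neuron-like cluster 1 had 364 and 226 CPM (log2 -0.69), and the Drd1-type cluster 12 had 155 and 93.6 CPM (log2 -0.72). Clusters 3 and 9 were assigned to neither type, though both had Drd1 among their markers. Cluster 3, led by the Drd1-type marker Ebf1, had 488 and 318 CPM (log2 -0.62). Cluster 9, at 213 and 146 CPM (log2 -0.55), was under the 1.5-fold limit. The excitatory neuron-like clusters with enough nuclei were lower, cluster 15 at 89.4 and 32.8 CPM and cluster 16 at 202 and 83.8 CPM. Cluster 35 of that class, with 36 and 10 nuclei, had 507 and 444 CPM on 71 and 11 UMIs. In interneuron-like nuclei the mix of clusters also differed between the libraries. Of the 478 control and 519 MIP nuclei, cluster 21 had 157 and 126 and cluster 25 had 84 and 52. Both held more Epha4 than cluster 13. The levels of cluster 21 were 486 and 354 CPM and those of cluster 13 were 43.8 and 23.1. Those of cluster 25 were 382 and 424 on 357 and 173 UMIs, log2 0.15 (-0.12 to 0.42). With the same cluster makeup in both libraries the class log2 ratio was -0.33 in place of -0.87.

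The share of nuclei with an Epha4 UMI was lower in the MIP library in the classes given here, though intervals overlapped in some. With each nucleus thinned to 2000 UMIs and shallower nuclei left out (8 control and 72 MIP), it was 24.9% (22.4 to 27.4) in control and 11.4% (9.50 to 13.5) in MIP astroglia-like nuclei. In spiny projection neuron-like nuclei it was 48.1% (46.3 to 49.9) and 33.8% (32.1 to 35.6), with 5 and 53 nuclei left out. Without thinning the shares were 46.8% and 19.9% for the astroglia-like class and 85.3% and 68.8% for spiny projection neurons. Microglia-like nuclei, the class with the lowest level, stood at 10.6% (7.39 to 14.7) and 6.33% (3.86 to 9.71) after thinning, on median depths of 3138 and 2701 UMIs, and at 16.6% and 6.91% without it. Neuroblast-like nuclei hardly differed after thinning, at 20.1% (17.6 to 22.8) and 19.7% (16.2 to 23.5), but stood at 31.8% and 23.3% without it.

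Of the other A-type receptors none was below 0 in as many classes. Epha5, a receptor of A-type ephrins in the forebrain, stood at 849 and 1446 CPM in excitatory neuron-like nuclei on 6017 and 9135 UMIs, log2 0.77 (0.72 to 0.82), and at 1064 and 1070.0 CPM in interneuron-like nuclei. Its excitatory difference was largest in cluster 16, at 1145 and 1958 CPM, against 632 and 861 CPM in cluster 15. Epha3 was at 218 and 309 CPM in excitatory neuron-like nuclei, log2 0.50 (0.41 to 0.60), and at 337 and 294 CPM in interneuron-like nuclei, log2 -0.19 (-0.30 to -0.09). It was thus higher in one neuron-like class and lower in the other, by less than 1.5-fold in both.

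Epha6 was highest in interneuron-like nuclei, at 1028 and 1119 CPM, followed by spiny projection neuron-like nuclei at 772 and 934 CPM, log2 0.27 (0.25 to 0.30). In microglia-like nuclei it had 49 and 91 UMIs, or 44.8 and 83.6 CPM in the different clusters of the libraries, log2 0.90 (0.38 to 1.43). That difference was 0.33 without doublet removal, 0.16 with classes made from marker scores and 0.41 without cluster 34, which held 0 control and 28 MIP Epha6 UMIs. The unnamed cluster 8, led by Tafa1 and Abi3bp, had 3 of 27 members higher and 7 lower, beside 3.26% and 15.9% of all genes tested, and held more of both receptors in the MIP library: Epha6 at 1154 and 2257 CPM, log2 0.97 (0.93 to 1.0), and Epha3 at 263 and 572 CPM, log2 1.12 (1.05 to 1.20).

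Epha7 stayed within 1.5-fold in 9 of 9 classes and 19 of 19 clusters. It was highest in excitatory neuron-like nuclei, at 384 and 425 CPM, log2 0.14 (0.07 to 0.22), and next in spiny projection neuron-like nuclei, at 339 and 294 CPM, log2 -0.21 (-0.25 to -0.17). Epha8 was highest in spiny projection neuron-like nuclei, at 45.3 and 37.2 CPM, log2 -0.28 (-0.40 to -0.17). In interneuron-like nuclei it had 161 and 84 UMIs, 28.9 and 17.5 CPM, log2 -0.72 (-1.12 to -0.33), and -0.46 with the same cluster makeup. Epha8 in astroglia-like nuclei, on 52 and 19 UMIs, was at 7.35 and 4.33 CPM with an interval from -1.60 to 0.02. Epha10 was highest in spiny projection neuron-like nuclei, at 99.8 and 88.5 CPM, and was within 1.5-fold in 5 of 5 classes tested. Epha1 had 97 and 66 UMIs over all nuclei, or 0.846 and 0.790 CPM, and was not compared by class.

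Among the B-type receptors, Ephb6 was lower in each of the 5 classes in which it could be compared. This family member lacks kinase activity. It was highest in excitatory neuron-like nuclei, with 213 and 92 UMIs or 30.0 and 14.6 CPM, log2 -1.05 (-1.41 to -0.69). Oligodendrocyte precursor-like nuclei had 43 and 12 UMIs, 11.0 and 4.14 CPM, log2 -1.42 (-2.47 to -0.47), and interneuron-like nuclei 51 and 19 UMIs, 9.16 and 3.97 CPM, log2 -1.21 (-2.05 to -0.42). The counts were low, so the intervals were wide, but each lay below 0.

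Spiny projection neuron-like nuclei gave Ephb6 levels of 12.9 and 8.43 CPM on 486 and 219 UMIs, log2 -0.61 (-0.85 to -0.38), and astroglia-like nuclei 5.79 and 2.96 CPM on 41 and 13 UMIs, log2 -0.97 (-1.99 to -0.04). The first of these was -0.48 under TMM scaling and no longer 1.5-fold. Over clusters Ephb6 was below 0 in 10 of 10 tested and at least 1.5-fold lower in 8, as were 15.9% and, for 8 or more, 3.67% of the 409 genes tested in exactly 10 clusters. At 15.0 kb it is a short gene, a group that was lower as a whole, as given further on.

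Of Ephb1, Ephb2, Ephb3 and Ephb4, only Ephb2 was past 1.5-fold in a class, and it and Ephb1 in single clusters (3 and 1). Ephb1 was high in spiny projection neuron-like nuclei (582 and 524 CPM) and in differentiating oligodendrocyte-like nuclei (515 and 556 CPM), and in astroglia-like nuclei it stood at 198 and 139 CPM, log2 -0.51 (-0.65 to -0.37). Its 1 cluster past the limit was the interneuron-like cluster 21, at 85.6 and 55.1 CPM, log2 -0.64. Ephb2 was highest in excitatory neuron-like (129.9 CPM) and cycling progenitor-like nuclei (127 CPM) of the control, whose intervals overlapped. In the MIP library it was at 77.5 CPM in excitatory neuron-like nuclei, on 921 and 490 UMIs, log2 -0.74 (-0.91 to -0.58), and at 118 CPM in cycling progenitor-like nuclei, log2 -0.10 (-0.43 to 0.22). Clusters 15 and 16 of that class had the lower level in the MIP library, cluster 15 at 134 and 81.9 CPM and cluster 16 at 125 and 73.7 CPM. With nuclei thinned to 2000 UMIs the class ratio of Ephb2 was -0.44. The unnamed cluster 8 held Ephb2 at 63.1 and 31.2 CPM, log2 -1.02 (-1.22 to -0.81). Ephb3 in astroglia-like nuclei was at 20.2 and 20.1 CPM, and Ephb4, a receptor of Efnb2 that is best known in veins, at 11.4 and 7.75 CPM on 81 and 34 UMIs, log2 -0.56 (-1.19 to 0.03).

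**Figure D4:**
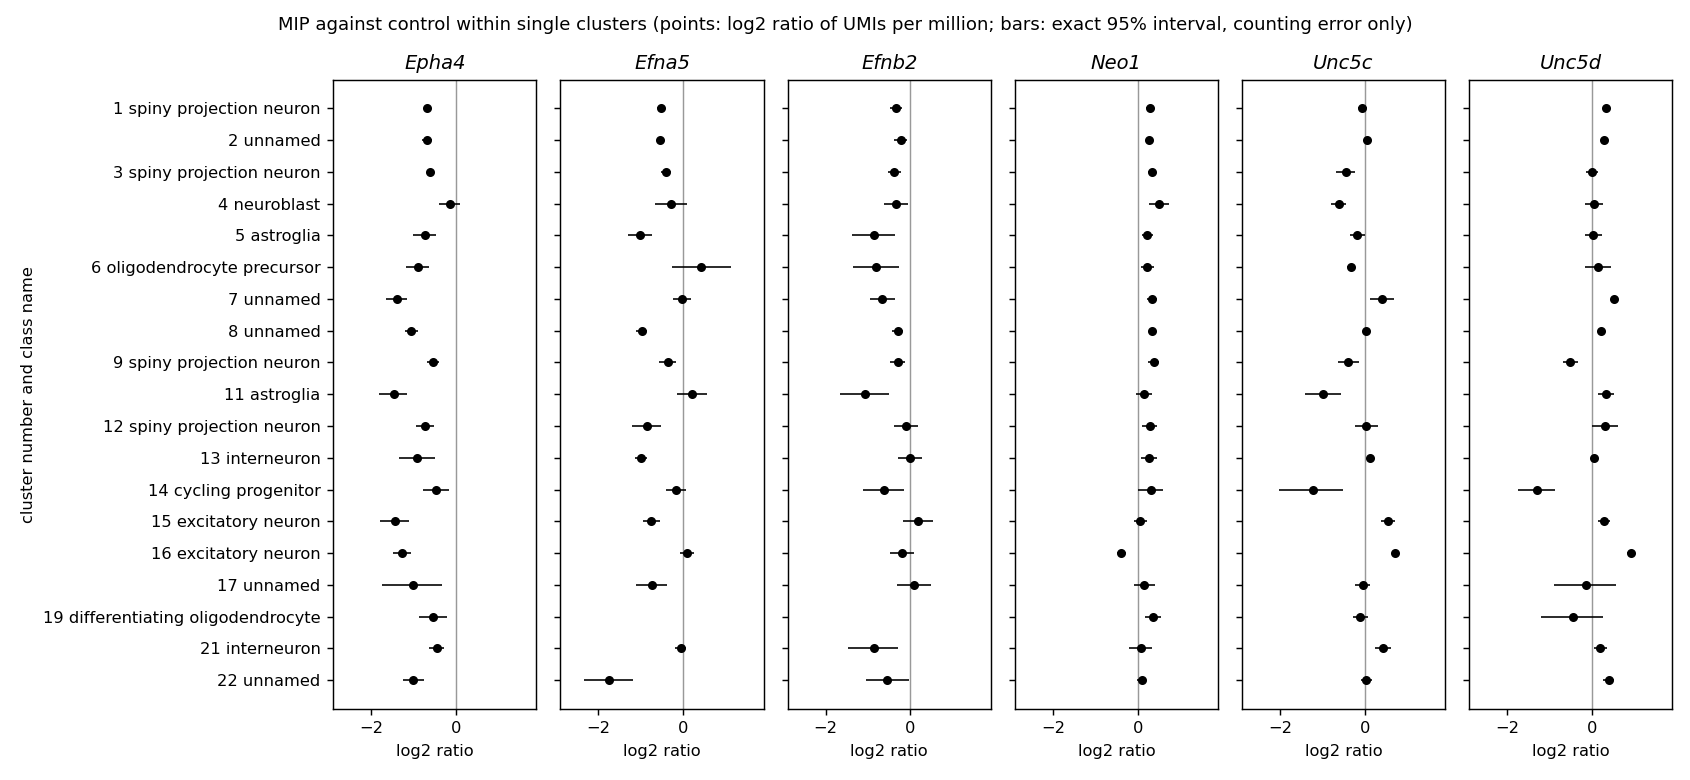
Log2 ratio of MIP to control (x axis) of 6 members in single clusters (y axis, number and class name; only clusters with at least 100 nuclei in each library and genes with at least 50 UMIs), with exact 95% intervals for counting error. Epha4 points lie left of 0 in 19 of 19 clusters and Neo1 points right of 0 in 18 of 19, while Unc5c and Unc5d points lie on both sides.

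Of the A-type ephrins, Efna5 had the highest counts and was lower in most classes. It is a repulsive ligand for A-type receptors. Interneuron-like nuclei, its highest class, had 2509 and 1430 UMIs, or 451 and 298 CPM, log2 -0.59 (-0.69 to -0.50). Here the 2 main clusters went apart: cluster 13 stood at 357 and 179 CPM, log2 -1.0 (-1.15 to -0.85), and cluster 21 at 749.9 and 721 CPM, log2 -0.06 (-0.19 to 0.07). With the same cluster makeup the class ratio was -0.45, and with classes from marker scores -0.21, under the 1.5-fold limit.

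Astroglia-like nuclei held Efna5 at 96.1 and 62.0 CPM on 680 and 272 UMIs, log2 -0.63 (-0.84 to -0.43). They too were divided, cluster 5 at 96.1 and 47.7 CPM and cluster 11 at 94.6 and 110.1 CPM, and under TMM scaling the class ratio was -0.54. Spiny projection neuron-like nuclei were at 157 and 113 CPM, log2 -0.48 (-0.54 to -0.41), and excitatory neuron-like nuclei at 175 and 147 CPM, log2 -0.25 (-0.37 to -0.12). Over clusters, Efna5 was below 0 in 15 of 18 and at least 1.5-fold lower in 7, down to -1.75 (-2.34 to -1.18) in the unnamed cluster 22, led by Adamtsl1, at 50.3 and 15.0 CPM. Of the 1051 genes tested in exactly 18 clusters, 26.5% were below 0 and 7.52% at least 1.5-fold lower in as many. Efna5 in the Drd2-type cluster 1 was at 215 and 150.0 CPM and in the Drd1-type cluster 12 at 63.9 and 35.2 CPM, so its level differed between these clusters in both libraries.

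The remaining A-type ephrins had low counts. Efna2 had 39 and 13 UMIs in interneuron-like nuclei, or 7.01 and 2.71 CPM, log2 -1.37 (-2.40 to -0.43), which was -0.10 with thinned nuclei. In excitatory neuron-like nuclei it was at 7.76 and 5.06 CPM with an interval from -1.29 to 0.04, and over all nuclei at 8.88 and 5.57 CPM, log2 -0.67 (-0.84 to -0.51). Its highest class was neuroblast-like in the control, at 15.0 CPM, and oligodendrocyte precursor-like in the MIP library, at 14.8 CPM. Efna3 was highest in spiny projection neuron-like nuclei, at 16.4 and 19.3 CPM, log2 0.24 (0.06 to 0.41). Efna4 was highest in neuroblast-like nuclei, at 7.38 and 6.34 CPM on 26 and 11 UMIs. Efna1, the single member higher over all nuclei, rested on 44 and 54 UMIs in all, 0.384 and 0.647 CPM, log2 0.75 (0.15 to 1.36).

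The B-type ephrin Efnb2, a ligand of Ephb4 and of Epha4 with roles in vessels and in the SVZ, was at least 1.5-fold lower in 3 of the 7 classes where it could be compared. Astroglia-like nuclei had 319 and 97 UMIs, or 45.1 and 22.1 CPM, log2 -1.03 (-1.37 to -0.70). Oligodendrocyte precursor-like nuclei had 103 and 44 UMIs, 26.5 and 15.2 CPM, log2 -0.80 (-1.35 to -0.28). Cycling progenitor-like nuclei had 233 and 49 UMIs, 86.9 and 54.8 CPM, log2 -0.67 (-1.14 to -0.22). In differentiating oligodendrocyte-like nuclei (15.6 and 14.6 CPM on 23 and 10 UMIs) and microglia-like nuclei (16.5 and 17.4 CPM on 18 and 19 UMIs) Efnb2 had too few UMIs to be compared. The astroglia-like difference was -0.34 without doublet removal, which adds nuclei with the highest doublet scores back into both libraries.

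Where Efnb2 was highest, in neuroblast-like nuclei, it stood at 109.6 and 87.1 CPM on 386 and 151 UMIs, log2 -0.33 (-0.61 to -0.06). In spiny projection neuron-like nuclei it was at 82.2 and 68.0 CPM, log2 -0.28 (-0.36 to -0.19), and in excitatory neuron-like nuclei at 53.0 and 54.4 CPM, log2 0.04 (-0.18 to 0.25). It was below 0 in 16 of 18 clusters, as were, in 16 or more, 20.6% of the genes tested in exactly 18. Efnb1, which is X-linked, had 85 and 27 UMIs in neuroblast-like nuclei, 24.1 and 15.6 CPM, with an interval from -1.31 to 0.01, and 68 and 26 UMIs in astroglia-like nuclei, 9.61 and 5.93 CPM, log2 -0.70 (-1.41 to -0.03). The astroglia-like value of Efnb1 was -0.43 without doublet removal. Efnb3, a ligand known from the spinal midline, was tested in 9 classes and within 1.5-fold in all 9, at 53.7 and 64.6 CPM in neuroblast-like and 51.5 and 51.7 CPM in spiny projection neuron-like nuclei.

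Among the netrins, Ntn1, the best-known attractant of the family, was highest in oligodendrocyte precursor-like nuclei (135 and 110.4 CPM) and spiny projection neuron-like nuclei (122 and 112 CPM), with overlapping intervals in both libraries. Cluster 9 of the latter class, which has Ntn1 among its leading genes, stood at 208 and 173 CPM. In oligodendrocyte precursor-like nuclei the log2 ratio was -0.29 (-0.50 to -0.09) and in spiny projection neuron-like nuclei -0.13 (-0.20 to -0.06). Interneuron-like nuclei had 307 and 139 UMIs, 55.2 and 29.0 CPM, log2 -0.93 (-1.23 to -0.63). With the same cluster makeup this was -0.36, and clusters 13 and 21 were themselves at 13.3 and 14.9 and at 19.7 and 25.7 CPM. Most Ntn1 UMIs of the class in the control lay in cluster 25, led by Nos1, Npy and Sst, with 234 and 62 UMIs or 250.1 and 152 CPM, log2 -0.72, on 84 and 52 nuclei. Ntn1 in excitatory neuron-like nuclei was low, at 9.73 and 6.33 CPM on 69 and 40 UMIs, log2 -0.62 (-1.22 to -0.04).

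Ntn4, a netrin of basement membranes, was at 43.1 and 34.9 CPM in astroglia-like and 40.9 and 39.8 CPM in neuroblast-like nuclei. Its highest level was in the astroglia-like cluster 11, at 103 and 87.3 CPM, against 19.7 and 21.2 CPM in cluster 5. In spiny projection neuron-like nuclei Ntn4 had only 54 and 19 UMIs, 1.43 and 0.731 CPM, log2 -0.97 (-1.81 to -0.19). Ntn3 had 551 and 407 UMIs over all nuclei, 4.81 and 4.87 CPM, log2 0.02 (-0.17 to 0.21). No netrin reached 1.5-fold higher in any class tested.

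The netrin-Gs were higher in excitatory neuron-like nuclei of the MIP library. Ntng1, whose product binds NGL-1 (Lrrc4c), had 369 and 619 UMIs, 52.1 and 98.0 CPM, log2 0.91 (0.72 to 1.10), and Ntng2, whose product binds NGL-2 (Lrrc4), 505 and 753 UMIs, 71.2 and 119 CPM, log2 0.74 (0.58 to 0.91). The higher level lay in cluster 16, with Ntng1 at 89.0 and 162 CPM and Ntng2 at 158 and 220.3 CPM, and cluster 15 had Ntng1 at 25.4 and 25.3 CPM. Cluster 16 held 167 of 453 control and 242 of 477 MIP nuclei of the class. With the same cluster makeup the class ratios were 0.69 for Ntng1 and 0.49 for Ntng2, and with classes from marker scores 0.55 and 0.19, so the call for Ntng2 was lost in both and that for Ntng1 in the second.

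Elsewhere Ntng1 was highest in neuroblast-like nuclei, at 198 and 151 CPM on 696 and 262 UMIs, log2 -0.39 (-0.60 to -0.18), and stood at 54.1 and 73.3 CPM in spiny projection neuron-like nuclei, log2 0.44 (0.35 to 0.53). The unnamed cluster 17, led by Pkib, Isl1 and Drd3, held more than either class, at 678 and 465 CPM. Ntng2 had 31 and 26 UMIs in differentiating oligodendrocyte-like nuclei, 21.1 and 37.9 CPM, log2 0.85 (0.04 to 1.65). In oligodendrocyte precursor-like nuclei (13.6 and 8.97 CPM) and spiny projection neuron-like nuclei (1.43 and 0.885 CPM) Ntng2 was past 1.5-fold lower, with intervals from -1.34 to 0.10 and from -1.47 to 0.03 that include 0.

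Dcc, the attractive netrin receptor, was the same in both libraries where it was highest. Spiny projection neuron-like nuclei had 102356 and 70306 UMIs, or 2715 and 2705 CPM, log2 -0.01 (-0.02 to 0.01). Oligodendrocyte precursor-like nuclei came next, at 2058 and 2475 CPM, log2 0.27 (0.22 to 0.31). Its widest differences were 770 and 1073 CPM in differentiating oligodendrocyte-like nuclei, log2 0.48 (0.34 to 0.61), and 938 and 1253 CPM in interneuron-like nuclei, log2 0.42 (0.36 to 0.47). Within the neuron-like classes Dcc went opposite ways in neighbouring clusters: 911 and 1454 CPM in interneuron-like cluster 13 against 1322 and 928 CPM in cluster 21, and 1102 and 1792 CPM in excitatory neuron-like cluster 16 against 1106 and 764 CPM in cluster 15. Dcc in cycling progenitor-like nuclei, at 1987 and 2062 CPM, and in the astroglia-like class as a whole, at 543 and 543 CPM, was level. Small clusters of the astroglia-like class went apart. Cluster 39, with 15 and 7 nuclei of high depth, held 1041 and 597 Dcc UMIs, or 2394 and 3210 CPM. Cluster 31, with 45 and 28 nuclei, stood at 742 and 432 CPM, log2 -0.78 (-1.16 to -0.42).

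Neo1, neogenin, a receptor for netrins and repulsive guidance molecules, was above 0 in more clusters than any other member, though by 1.5-fold in none of them. It was above 0 in 7 of 9 classes and in 18 of 19 clusters; of all genes tested throughout, 28.4% were above 0 in as many classes and 11.3% in as many clusters. Differentiating oligodendrocyte-like nuclei, its highest class, had 598 and 359 UMIs, 407 and 523 CPM, log2 0.36 (0.17 to 0.56). Neuroblast-like nuclei had the largest ratio, at 106 and 151 CPM on 372 and 261 UMIs, log2 0.51 (0.28 to 0.74). Cycling progenitor-like nuclei were at 171 and 226 CPM, log2 0.40 (0.16 to 0.64), and spiny projection neuron-like nuclei at 154 and 195 CPM, log2 0.34 (0.29 to 0.40). The exceptions were excitatory neuron-like nuclei, at 326 and 297 CPM, log2 -0.13 (-0.22 to -0.04), where cluster 16 alone stood at 460 and 353 CPM, and microglia-like nuclei, at 52.1 and 41.3 CPM.

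Unc5c, a repulsive netrin receptor, was higher in excitatory neuron-like and lower in neuroblast-like nuclei of the MIP library. Excitatory neuron-like nuclei had 3181 and 5491 UMIs, 449 and 869 CPM, log2 0.95 (0.89 to 1.02). Neuroblast-like nuclei had 1090 and 350 UMIs, 309 and 202 CPM, log2 -0.62 (-0.79 to -0.44). Its highest class was interneuron-like in the control and excitatory neuron-like in the MIP library. Within excitatory neuron-like nuclei cluster 16 was at 889.9 and 1464 CPM, log2 0.72 (0.65 to 0.79), and cluster 15 at 133 and 194 CPM, log2 0.55 (0.37 to 0.72). With the same cluster makeup the class ratio was 0.69. The neuroblast-like ratio was -0.55 without doublet removal, just under the limit. The share of neuroblast-like nuclei with an Unc5c UMI did not go the same way after thinning: it was 22.2% (19.61 to 25.03) in the control and 23.0% (19.3 to 27.0) in the MIP library, with 19 and 186 nuclei left out, and 28.1% and 24.2% without thinning.

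In cycling progenitor-like nuclei Unc5c was at 210.4 and 163 CPM, log2 -0.37 (-0.64 to -0.10), and its cluster 14 at 66.2 and 28.3 CPM on 133 and 18 UMIs, log2 -1.22 (-2.02 to -0.51). The other cluster of that class, cluster 24, is led by Top2a and Pdgfra and had 94 and 43 nuclei. It held most of the class's Unc5c, at 642 and 493 CPM on 431 and 128 UMIs, log2 -0.38 (-0.68 to -0.09). Oligodendrocyte precursor-like nuclei held Unc5c at 601 and 479.9 CPM, log2 -0.32 (-0.42 to -0.23), and interneuron-like nuclei at 655 and 755 CPM, log2 0.20 (0.14 to 0.27). Astroglia-like cluster 11 was at 121 and 61.3 CPM, log2 -0.98 (-1.41 to -0.56), and cluster 5 at 169 and 150.0 CPM.

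Unc5d, also an Unc5-type receptor, which binds FLRT proteins as well, was lower in cycling progenitor-like nuclei, at 156 and 71.5 CPM on 417 and 64 UMIs, log2 -1.12 (-1.52 to -0.74). Cluster 14 of that class had 190 and 77.2 CPM of Unc5d, log2 -1.30 (-1.76 to -0.87). Cluster 24 was not lower, at 53.6 and 57.8 CPM on 36 and 15 UMIs, log2 0.11 (-0.87 to 1.01). With classes from marker scores the class ratio was -0.36, under the 1.5-fold limit. In neuroblast-like nuclei Unc5d was level, at 150.2 and 155 CPM. It was higher by less than 1.5-fold in excitatory neuron-like nuclei, at 439 and 640.5 CPM, log2 0.55 (0.48 to 0.61), in spiny projection neuron-like nuclei, at 248 and 308 CPM, log2 0.31 (0.27 to 0.36), and in interneuron-like nuclei, at 1009 and 1168 CPM, log2 0.21 (0.16 to 0.26).

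Within excitatory neuron-like nuclei cluster 16 held Unc5d at 515 and 969.9 CPM, log2 0.91 (0.83 to 1.0), and cluster 15 at 191 and 233 CPM. Cluster 35 of that class, on 36 and 10 nuclei, held 819 and 102 Unc5d UMIs, or 5845 and 4115 CPM, which is the reverse direction. The level of Unc5d also differed widely within the spiny projection neuron-like class, in both libraries. The Drd2-type cluster 1 held 534 and 677 CPM, the Drd1-type cluster 12 held 46.5 and 57.6 CPM and cluster 3 held 71.4 and 71.3 CPM. Microglia-like nuclei had 38 and 64 Unc5d UMIs, 34.8 and 58.8 CPM, log2 0.76 (0.16 to 1.38), a value that turned to -1.89 with classes from marker scores and was 0.39 without cluster 34, which held 0 and 16 of these UMIs. Unc5a was highest in excitatory neuron-like nuclei, at 25.7 and 26.6 CPM, and Unc5b in interneuron-like nuclei, at 12.4 and 15.2 CPM on 69 and 73 UMIs. Both stayed within 1.5-fold in each class where they were tested (4 and 2 classes).

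All members together made up 6052 and 6818 CPM over all nuclei, log2 0.17 (0.17 to 0.18). In excitatory neuron-like nuclei their sum was 5480 and 6769 CPM, log2 0.30 (0.28 to 0.32), and in spiny projection neuron-like nuclei 6357 and 6353 CPM. Members with high levels weigh most in such sums, and their differences can offset each other. In spiny projection neuron-like nuclei Dcc stood at 2715 and 2705 CPM, Epha6 at 772 and 934, Ephb1 at 582 and 524 and Epha4 at 369 and 229.

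Gene span, the length from start to end, moved with the ratios of all genes and is therefore given for the members. Over all nuclei the median log2 ratio was -0.33 for genes under 20 kb, -0.10 for 20 to 100 kb, -0.03 for 100 to 300 kb and 0.10 for those over 300 kb. Epha4 spans 148 kb, and relative to the median of its length group its ratio over all nuclei was -0.78 in place of -0.81. Ephb6 (15.0 kb) stood at -0.40 in place of -0.74 and Efna2 (10.5 kb) at -0.34 in place of -0.67. Of the members over 300 kb, Epha3, Epha5, Epha6, Unc5c, Unc5d and Ntng1 lay above their group's median and Dcc and Ephb1 below it. The part of gene span in the members' differences was not tested further.

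**Figure D5:**
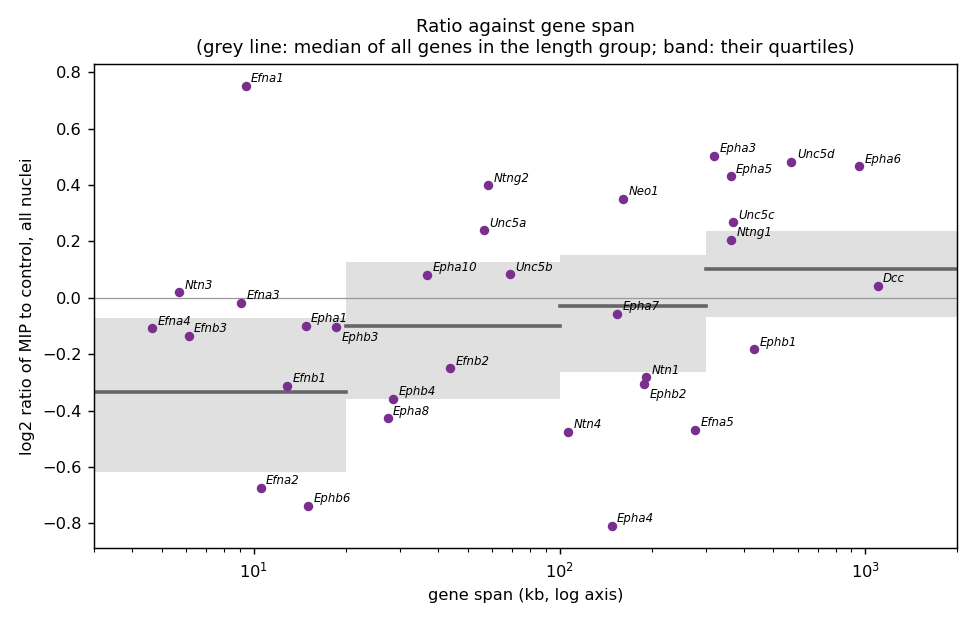
Log2 ratio of MIP to control over all nuclei (y axis) against gene span in kb (x axis, log scale); purple points are the members with at least 50 UMIs, grey lines the median and grey bands the quartiles of all genes in 4 length groups. Epha4 lies far below the band of its group, while Ephb6 (-0.74) and Efna2 (-0.67) belong to the shortest genes, whose median is -0.33.

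The partners of these pathways were read from 2 lists. Of 26 effectors of Eph receptors and ephrins, 0 were higher and 4 of 26 (15.4%) lower in astroglia-like nuclei, near the 11.6% of all genes tested there: Arhgef15, an exchange factor downstream of Ephb2 (6.78 and 2.51 CPM, log2 -1.44), the adaptor Nck2 (28.8 and 17.1 CPM, log2 -0.75), the Rac regulator Chn2 (31.5 and 18.9 CPM, log2 -0.74) and Rgs3 (log2 -0.66). Vav3, a guanine nucleotide exchange factor, stood at 68.0 and 101 CPM there, log2 0.57 (0.39 to 0.76), but at 79.7 and 29.8 CPM in excitatory neuron-like nuclei, log2 -1.42 (-1.67 to -1.18). With Vav2 (27.1 and 13.1 CPM, log2 -1.04) it made up the 2 of 24 lower there, beside 13.7% of all genes. In spiny projection neuron-like nuclei 0 of 25 and in oligodendrocyte precursor-like nuclei 0 of 23 effectors were past 1.5-fold in either direction. Of all genes there 2.43% and 3.22% were higher and 12.9% and 12% lower.

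Other classes held 1 to 4 such effectors, beside the shares of all genes given above for each class, from 9.02% to 16.7% lower and from 2.65% to 12% higher. Ngef, an exchange factor that acts with Epha4, was lower in neuroblast-like nuclei (29.8 and 19.0 CPM, log2 -0.65, 1 of 24) and cycling progenitor-like nuclei (log2 -0.61, 1 of 24). Interneuron-like nuclei had 2 of 25 lower, Vav3 (log2 -0.78) and Arhgef15 (log2 -0.66). Differentiating oligodendrocyte-like nuclei had Itsn1 higher (97.2 and 160.4 CPM, log2 0.72) and Sipa1l1 lower (log2 -0.90), of 22. In microglia-like nuclei, across different clusters, the kinase Abl2 (175 and 378 CPM, log2 1.11) and the adaptor Sdcbp (116 and 238 CPM, log2 1.03) were higher, and Tiam1 (137 and 50.5 CPM, log2 -1.44) and Grip1 (log2 -0.68) lower, of 21.

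Of 21 netrin receptor partners, other ligands and effectors, 0 were higher and 4 (19%) lower in astroglia-like nuclei, beside 3.88% and 11.6% of all genes: Dscam, an adhesion receptor that binds netrin-1 (90.7 and 42.6 CPM, log2 -1.09), Flrt1, a partner of Unc5 receptors (34.2 and 21.9 CPM, log2 -0.64), the Dcc ligand Draxin (log2 -0.63) and Rgmb, a ligand of Neo1 (log2 -0.61). Cycling progenitor-like nuclei had 3 lower (14.3%, beside 11.5% of all genes): Trim9, a ubiquitin ligase that binds Dcc (207 and 81.6 CPM, log2 -1.34), Ablim1 (log2 -0.96) and Maged1 (log2 -0.60). They had 1 of 21 higher, Trim67 (22.8 and 42.5 CPM, log2 0.90), beside 5.05% of all genes. Trim67, a relative of Trim9, was also the 1 of 21 higher in spiny projection neuron-like nuclei (11.99 and 19.9 CPM, log2 0.73), beside 2.43% of all genes. Trim9 was the 1 of 18 lower in differentiating oligodendrocyte-like nuclei (59.2 and 19.0 CPM, log2 -1.64), beside 12.1% of all genes. Flrt2 was the 1 of 21 lower in excitatory neuron-like nuclei (338 and 223 CPM, log2 -0.60), beside 13.7% of all genes. It was also lower in interneuron-like nuclei (211 and 141 CPM, log2 -0.59), with Dock1 (log2 -0.76), 2 of 21 beside 12.7%. In microglia-like nuclei Pitpna was higher (log2 0.77) and Pak1 lower (log2 -0.66), of 15 tested, beside 12% and 16.7% of all genes. In neuroblast-like and oligodendrocyte precursor-like nuclei 0 of 21 were past 1.5-fold, beside 5.74% and 3.22% of all genes higher and 9.02% and 12% lower. Over all nuclei 1 of 26 effectors, Inppl1 (3.51 and 2.13 CPM, log2 -0.72), and 0 of 21 netrin partners were past 1.5-fold lower, beside 18.7% of all genes. In either list 0 were higher, beside 2.32%. The medians of the 2 lists were -0.03 and 0.05, against -0.19 over all genes.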

How the data were processed

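Single-nucleus RNA of the SVZ was measured in 1 control and 1 MIP library. The deposited values are raw counts of UMIs per gene and barcode. The submitters' processing notes name Cell Ranger 5.0.1 and mm10; whether intronic reads were counted and how barcodes were called is not given in the sources used here. The libraries held 146730970 and 100823376 UMIs, a median of 6154 and 6351 per barcode.

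Nuclei with under 500 genes or over 5% mitochondrial UMIs and, per library, the highest Scrublet doublet scores at 0.8% per 1000 barcodes were left out (2271 and 1174 nuclei), since Scrublet's own threshold marked 0 and 749. Both libraries were clustered together on 3000 variable genes without the members, 6 sex-linked, mitochondrial, ribosomal and haemoglobin genes (40 components, 20 neighbours, Leiden resolution 1; Scanpy 1.11.5, leidenalg 0.10.2). Clusters were named from marker lists; 6580 control and 3754 MIP nuclei stayed unnamed, 3515 and 692 of them in 2 clusters of low depth. UMIs were summed per class and library. Ratios carry exact conditional binomial intervals (SciPy 1.17.1), levels exact Poisson and shares Clopper-Pearson intervals. TMM factors came from edgeR 4.0.16. The code was tested on simulated counts. Named in full were, per class, the members at least 1.5-fold apart on 50 or more UMIs with an interval away from a ratio of 1, each member in its highest class and, per class, up to 3 list genes in each direction by the interval bound nearest to 1; others were chosen after their values were seen. Members and lists were chosen with earlier results of these data known. Gene spans come from GENCODE M21 (32158 of 32285 IDs matched), promoters from RefSeq. Alternatives were TMM scaling, no doublet removal, thinning, classes from marker scores, low-depth clusters left out, the same cluster makeup within a class, other minimums and a fold of 2; the same cluster makeup over all nuclei the ratio relative to genes of the same length group and the microglia-like class without cluster 34 were added after seeing the data.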

Additional observations from a re-analysis of the deposited data

Results flagged for a closer look

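Unc5c and Unc5d each passed 1.5-fold in opposite directions in different classes. The log2 ratio of Unc5c was 0.95 in excitatory neuron-like and -0.62 in neuroblast-like nuclei, and that of Unc5d was 0.76 in microglia-like and -1.12 in cycling progenitor-like nuclei. These opposite directions were not stable for Unc5d: its microglia-like value was -1.89 with classes from marker scores and 0.39 without cluster 34, in a class that lay in different clusters in the libraries, and its cycling progenitor-like value was -0.36 with classes from marker scores. The neuroblast-like value of Unc5c was -0.55 without doublet removal. With 1 library per group the difference between the classes was not tested.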

How the results depend on the processing

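No paired analysis was possible because each group has 1 library, and for the same reason no library could be left out. Of the log2 ratios of single members, list counts and shares, 284 values stayed within their limits under an alternative, 83 moved and 1 changed sign: Unc5d in microglia-like nuclei was -1.89 with classes from marker scores. Counts are of members past the limit, higher or lower, and the cause was not tested in any case. The share of all genes past the limit under each alternative is not given, so the counts below stand without a background. TMM scaling gave 5 higher and 1 lower over all nuclei, 1 lower in spiny projection neuron-like and 3 lower in excitatory neuron-like nuclei. Relative to genes of the same length group, 1 was lower over all nuclei. Without doublet removal, 2 were lower in astroglia-like nuclei, 2 higher and 0 lower in neuroblast-like, 4 higher and 2 lower in differentiating oligodendrocyte-like, 7 higher and 3 lower in excitatory neuron-like, and 0 higher in microglia-like nuclei. With nuclei thinned to 2000 UMIs, 1 was higher in cycling progenitor-like nuclei, 2 lower in oligodendrocyte precursor-like, 0 higher in differentiating oligodendrocyte-like, 2 lower in spiny projection neuron-like, 1 lower in excitatory neuron-like, and 1 higher and 3 lower in microglia-like nuclei. Classes from marker scores gave 4 lower in differentiating oligodendrocyte-like, 1 higher in interneuron-like, and 0 higher and 8 lower in microglia-like nuclei. The same cluster makeup gave 2 lower in interneuron-like, 3 lower in excitatory neuron-like, and 1 higher and 3 lower in microglia-like nuclei. Without cluster 34, 0 were higher and 3 lower in microglia-like nuclei. A minimum of 20 UMIs gave 6 lower in cycling progenitor-like, 4 in neuroblast-like and 4 in microglia-like nuclei, and 2 higher and 2 lower in differentiating oligodendrocyte-like nuclei. A minimum of 100 UMIs gave 3 lower in astroglia-like, 2 in oligodendrocyte precursor-like, 2 in spiny projection neuron-like and 0 in microglia-like nuclei, and 0 higher in differentiating oligodendrocyte-like nuclei. A fold of 2 left 2 lower in astroglia-like, 1 in cycling progenitor-like, 0 in neuroblast-like, 1 in oligodendrocyte precursor-like, 0 in spiny projection neuron-like, 2 in interneuron-like, 2 in excitatory neuron-like and 0 in microglia-like nuclei, and 0 higher in differentiating oligodendrocyte-like, excitatory neuron-like and microglia-like nuclei. The remaining 126 counts stayed within 1.5 times. TMM scaling raised each log2 ratio by 0.18 over all nuclei and by 0.00 to 0.15 in the classes. Low counts set the widest intervals, as for Ephb6 in oligodendrocyte precursor-like nuclei.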

Other observations

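The unnamed cluster 8, led by Tafa1, Abi3bp and Tafa2, had 428 control and 737 MIP nuclei and held receptors of both families that differed in both directions. Of 27 members tested there 3 were higher and 7 lower in the MIP library, beside 3.26% and 15.9% of all 13006 genes tested. The 3 higher ones are A-type receptors: besides Epha3 and Epha6, given above, Epha10 stood at 51.7 and 94.5 CPM on 417 and 965 UMIs, log2 0.87 (0.70 to 1.04). The A-type receptor Epha4 was lower, at 119.8 and 57.7 CPM on 966 and 589 UMIs, log2 -1.05 (-1.21 to -0.91), as were its ligand Efna5, at 159 and 80.7 CPM, log2 -0.98 (-1.11 to -0.85), and the B-type receptor Ephb2. Epha8 (11.0 and 6.76 CPM), Unc5b (7.44 and 4.6 CPM), Efna2 (6.70 and 3.82 CPM) and Ephb6 (6.45 and 4.21 CPM) were lower on fewer than 100 UMIs in each library. The cluster held 2 excitatory neuron markers, Slc17a7 and Lmo3, among its 60 leading genes, under the 3 needed for a name. Its kind of cell was thus left unnamed, and how its makeup differs between the libraries was not tested.

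Cluster 7, with 612 control and 583 MIP nuclei, held Efnb2 at 63.0 and 39.8 CPM on 302 and 140 UMIs, log2 -0.66 (-0.96 to -0.37). Cluster 2, led by Rmst and Zfp804b, held Ntng2 at 17.3 and 7.37 CPM on 347 and 111 UMIs, log2 -1.24 (-1.56 to -0.92), opposite to the higher level in excitatory neuron-like nuclei. Cholinergic neuron-like nuclei, with 51 and 46 nuclei, were too few to be compared: Epha4 stood at 197 and 209 CPM on 192 and 131 UMIs, and Efna5 at 282 and 124 CPM on 275 and 78 UMIs.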
